A study of Mus musculus with 24 samples.

Results

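Liver invariant natural killer T (iNKT) cells were taken from NOD mice given nanoparticles coated with αGalCer/CD1d. Among them, 97 cells carried Gzma with under 10 counts of each of the Tr1-like genes Il10, Il21 and Lag3. They were chosen by their own counts: of the 282 treated cells in the table, those kept had at least 100000 counts in all, under 100 counts of Lyz2, C1qa and Csf1r together, under 10 counts of each of Il10, Il21 and Lag3, and at least 10 counts of Gzma, the granzyme A gene. They made up 97 of the 259 treated cells that passed the depth and macrophage filters, or 37.5% (31.5 to 43.7%, exact binomial 95% interval), and 97 of the 566 cells in both tables. They are called treated Gzma+ cells here. Since Gzma, Il10, Il21 and Lag3 selected them, their values for those genes are a description and no result. In the names of the sets, Tr1-like genes means Il10, Il21 and Lag3 only.

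The cells were αGalCer/CD1d tetramer+ iNKT cells sorted singly from the livers of male NOD mice, 13 to 15 weeks old, with 3 mice in each group. Each dose given to treated mice held 20 μg of protein on αGalCer/CD1d nanoparticles, with 2 doses a week over 5 weeks, and control mice were untreated. Full-length SmartSeq2 RNA-seq libraries were made from each cell. The cell names do not separate the mice, so each condition is 1 sample, no difference between conditions could be tested, and intervals cover counting error only. Reads were counted without molecular identifiers and are not independent molecules. The treated Gzma+ cells were compared with 4 other sets, each under the same filters: all 280 untreated cells, the 11 untreated cells among them that met the same gene rule, the 80 treated cells with neither Gzma nor Tr1-like genes ("treated Gzma- cells"), and the 82 treated cells with at least 10 counts of Il10, Il21 or Lag3 ("treated Tr1-like cells").

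iNKT cells carry a semi-invariant T cell receptor (TCR) that reads glycolipids such as αGalCer on CD1d, and those of the mouse liver are mostly of the iNKT1 kind, which share many surface receptors with natural killer (NK) cells. Granzymes are proteases of cytotoxic granules that enter target cells through pores made by perforin. NK receptors are either inhibitory, mostly reading MHC class I, or activating, and the latter signal through small adaptors such as DAP12 (Tyrobp) and the Fc receptor gamma chain (Fcer1g).

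Depth was alike across the sets, with median totals per cell from 590018 counts in treated Gzma- cells to 708608 in the 11 untreated Gzma+ cells and 612558 in treated Gzma+ cells. The median number of genes with a count was 841 in treated Gzma+ cells, 865.5 in all untreated cells, 845.5 in treated Gzma- cells and 996.5 in treated Tr1-like cells. Mitochondrial genes took a median of 1.15% of counts in treated Gzma+ cells and 1.37% in untreated cells. No cell name was shared by the tables, and doublets were not called.

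The rule had a wide gap at its threshold. Treated Gzma+ cells held at least 60 Gzma counts; the 5 lowest had 60, 134, 333, 518 and 555, and 84 of the 97 had at least 1000. The 80 treated Gzma- cells just outside the threshold had 0 Gzma counts each. At the other edge, 1 of the 97 cells had any count of Lag3, with 2 counts, and none had a count of Il10 or Il21. Of the 82 treated Tr1-like cells, 5 also had Gzma (6.10%, 2.01 to 13.7%), and in those 5 the strongest of the Tr1-like genes had between 688 and 2228 counts.

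The same gene rule was met by 11 of the 280 untreated cells, or 3.93% (1.98 to 6.92%), against 37.5% of treated cells; the rule's own genes set these shares, which are given as a description of 1 sample each. Within flow cell lane 1 the shares were 3.19% of untreated and 35.3% of treated cells, and within lane 2 they were 5.43% and 41.9%. Per cell, Gzma in treated Gzma+ cells had a median of 7314 CPM (counts per 1000000 counts of the cell) and a highest value of 38902 CPM, and in the 11 untreated Gzma+ cells a median of 2392 CPM and a highest of 33968 CPM. The ranges overlapped, and 36.6% of all Gzma counts of the 11 untreated cells came from 1 cell.

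**Figure D1:**
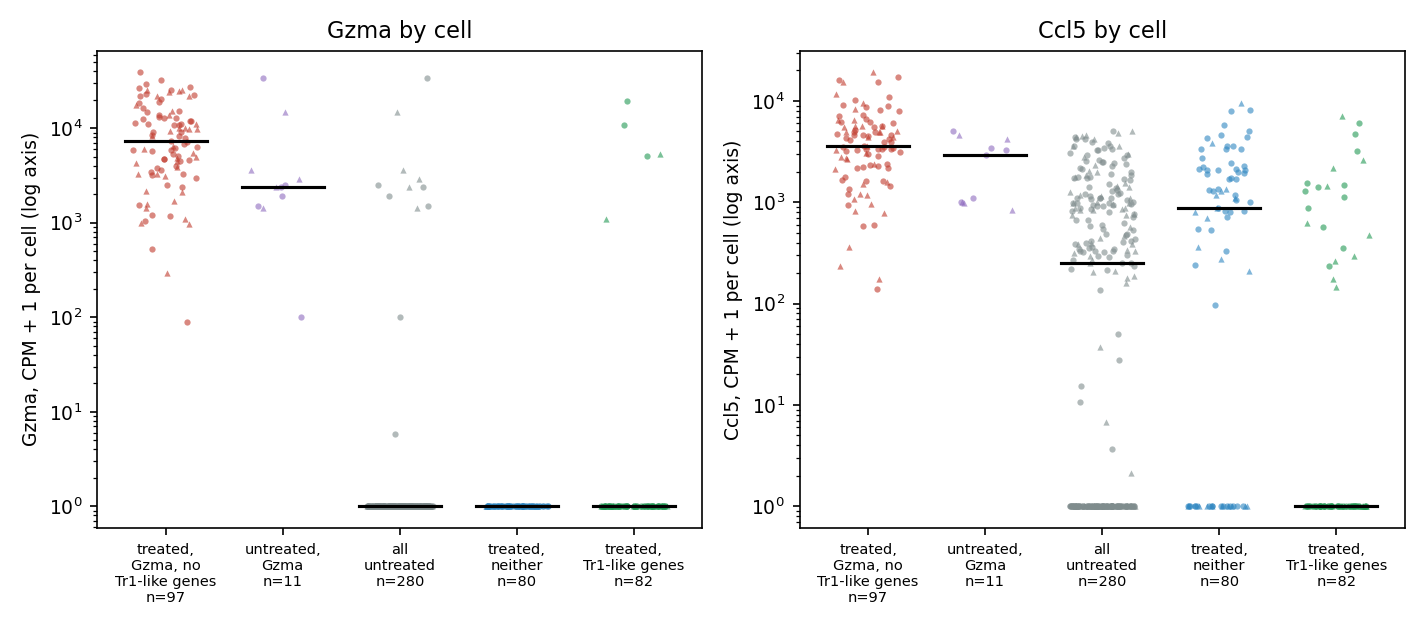
Gzma (left) and Ccl5 (right) in each cell as CPM + 1 on a log axis, for the 5 sets of cells; circles are lane 1, triangles lane 2, and black lines medians. All 97 treated Gzma+ cells have at least 10 counts of Ccl5, and the 80 treated Gzma- cells lie at 0 for Gzma.

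These were T cells by their transcripts. All 97 treated Gzma+ cells had at least 10 counts of a CD3 chain or a TCR constant gene (96.3 to 100%); 93 of 97 had Cd3d, Cd3e or Cd3g (95.9%, 89.8 to 98.9%), beside 95.7% of untreated, 96.3% of treated Gzma- and 98.8% of treated Tr1-like cells. Trav11, the TCR alpha segment of iNKT cells, reached 10 counts in 20 cells (20.6%, 13.1 to 30.0%), against 17.1% of untreated cells. Of the 13 TCR and iNKT identity genes listed, 11 or 12 could be tested in each comparison. None was called higher or lower against untreated cells, treated Gzma- cells or treated Tr1-like cells. This is near the 0.108 to 2.77% of all genes called in each direction there. Traj18, in 6.19% of treated Gzma+ cells, and Zbtb16, the gene of PLZF, were too rare to test against treated Gzma- cells. Zbtb16 was in 2.06% of treated Gzma+ cells at 24.2 CPM, against 6.25% and 140 CPM in treated Gzma- cells. Against the 11 untreated Gzma+ cells Cd3d was lower, in 50.5% against 81.8% of cells, but not with TMM (trimmed mean of M values) scaling, with equal weight per cell or without the cell with most counts. All 40 cells with Ncr1 and all 29 cells with Tyrobp had a CD3 chain.

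Markers of other cell types were read in the same cells. Of the 9 NK cell markers listed, 8 reached 10 counts in a treated Gzma+ cell. Without Gzma, which the rule used, 87 of the 97 cells had at least 1 of them and 62 at least 2, against 71 and 21 of 280 untreated cells, and their summed level was 3613 CPM against 637 CPM. Ncr1, Tyrobp, Fcer1g and Klra8 were called higher than in untreated cells, and their part in the other differences was not tested. Eomes, a defining NK cell factor, had 0 counts in the 97 cells. At least 1 of 6 markers of CD8 and gamma delta T cells reached 10 counts in 53 of 97 treated Gzma+ cells, 137 of 280 untreated, 37 of 80 treated Gzma- and 29 of 82 treated Tr1-like cells. Most of these cells had Tcrg-C2, a TCR gamma constant gene, found in 46.4% of treated Gzma+ and 36.4% of untreated cells. Cd8a was in 4.12% of treated Gzma+ cells. Cd8b1 and Trdc were at 0 in the cells of every set. A B cell marker, Ighm, reached 10 counts in 9 of 97 treated Gzma+ cells. At least 1 of the B cell markers did so in 59 of 280 untreated, 9 of 80 treated Gzma- and 12 of 82 treated Tr1-like cells. A dendritic cell marker, Cd74 or Xcr1, reached 10 counts in 4 of 97 treated Gzma+ cells. Dendritic cell markers did so in 5 of 280 untreated, 0 of 80 treated Gzma- and 3 of 82 treated Tr1-like cells. All 8 macrophage markers outside the rule, all 4 neutrophil markers and all 5 endothelial markers were at 0 in treated Gzma+ cells. Outside the treated Gzma+ cells, endothelial markers reached 10 counts in 3 treated Tr1-like cells, 1 treated Gzma- cell and 1 untreated cell, and a macrophage marker in 2 treated Tr1-like cells. Fabp1 was the only one of 6 hepatocyte markers with 10 counts in treated Gzma+ cells, in 1 cell, whereas all 6 reached 10 counts among 2 of the 80 treated Gzma- cells, with a summed level of 420 CPM over that set. Haemoglobin genes reached 10 counts in 6 of the 97 cells, 6 of 80 treated Gzma-, 3 of 82 treated Tr1-like and 1 of 280 untreated cells, and their part in other differences was not tested.

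Differences between sets were called by size, with no test: a gene counted as higher or lower where its summed CPM differed at least 2-fold on a CPM + 1 scale and the share of cells with at least 10 counts differed by at least 20 percentage points in the same direction, among genes with 10 counts in at least 10% of the cells of either set. Against all untreated cells, 25 of 1762 genes (1.42%) were higher in treated Gzma+ cells and 6 (0.341%) were lower; within lane 1 and lane 2 the lower genes numbered 12 and 15. The higher genes included granzymes, chemokines, NK receptors and their adaptors, and the lower ones were 5 immediate early genes and Klf6. The median log2 ratio over all 1762 genes was 0.01.

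**Figure D2:**
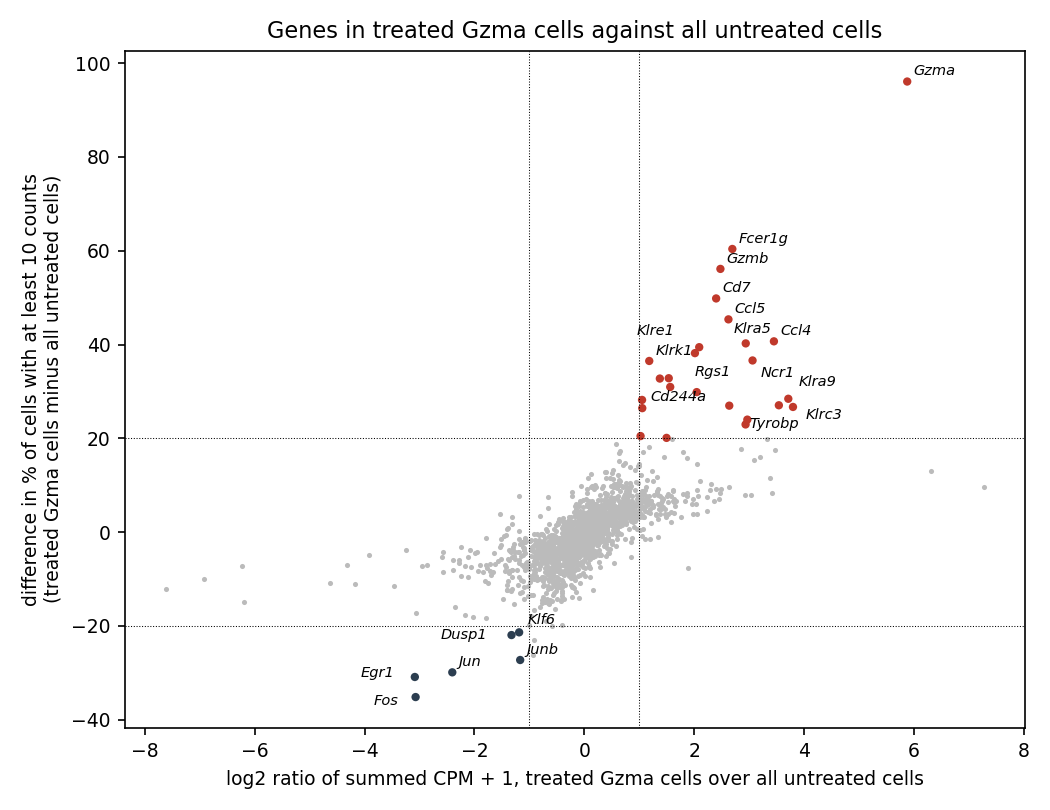
Each point is 1 of the 1762 genes, with the log2 ratio of summed CPM + 1 (treated Gzma+ over all untreated cells) on the x axis and the difference in the percentage of cells with at least 10 counts on the y axis; dotted lines mark 2-fold and 20 percentage points. The 25 higher genes (red) lie in the upper right and the 6 lower genes (dark) in the lower left, some of them close to the dotted lines.

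Among the cytotoxic effectors, Gzmb, the granzyme B gene, was found in 78 of 97 treated Gzma+ cells (80.4%, 71.1 to 87.8%) and in 24.3% of untreated cells (19.4 to 29.7%). Its summed level was 6357 CPM against 1140 CPM, a log2 ratio of 2.48. Of the 11 granzyme and effector genes tested against untreated cells, Gzma, which chose the cells, and Gzmb were called higher and none lower. Among all genes tested 1.42% were higher and 0.341% lower. Prf1, the perforin gene, was in 20.6% of treated Gzma+ cells (13.1 to 30.0%) and 6.07% of untreated cells (3.58 to 9.54%), short of the 20 points needed. Gzmk, the neighbour granzyme gene on chromosome 13, was in 13.4% and 1.79% of cells, and Fasl, the death receptor ligand gene, in 22.7% and 15.7%; neither was called. Nkg7, which encodes a membrane protein of cytotoxic granules, was in 98.97% of treated Gzma+ cells and already in 86.4% of untreated cells.

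Ccl4 and Ccl5 were the chemokine genes called higher. Ccl5 (RANTES) was found in all 97 treated Gzma+ cells (96.3 to 100%), at 4708 CPM, and in 54.6% of untreated cells (48.6 to 60.6%), at 762 CPM, a log2 ratio of 2.63. The Ccl5 values of the single cells overlapped between the sets. Ccl4 (MIP-1β) was in 46.4% of treated Gzma+ cells (36.2 to 56.8%) against 5.71% (3.30 to 9.11%), a log2 ratio of 3.45. Ccl3 (MIP-1α) was in 21.6% against 1.79% of cells, 19.9 points apart and so just under the call. Xcl1, the ligand of XCR1 on cross-presenting dendritic cells, was in 41.2% against 31.4% of cells, and Ifng in 20.6% against 18.6%; their intervals overlap.

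The NK receptor genes were the largest group. Of 14 activating receptors and adaptors listed, 13 could be tested, of which 7 were higher than in untreated cells and none lower. Of 14 inhibitory receptors listed, 9 could be tested, of which 5 were higher and none lower, beside 1.42% higher among all genes tested. Of those called, Ncr1, Tyrobp, Cd244a, Klra8, Klra5, Klra9 and Klra10 were in under 10% of untreated cells and entered the test only through the treated Gzma+ cells, so the counts describe the genes tested and not the lists. They also take Klra8, Klra9, Klra10, Klrc1 and Klrc2 as annotated, although they could not be read as separate genes.

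Ncr1 encodes the activating receptor NKp46 and lies on chromosome 7 at 4337724 to 4345164 (GRCm38). It was found in 40 of 97 treated Gzma+ cells (41.2%, 31.3 to 51.7%), at 1621 CPM, with a median of 0 and a highest value of 13470 CPM per cell. Among untreated cells 4.64% (2.495 to 7.81%) had it, at 193 CPM, a log2 ratio of 3.06. So most treated Gzma+ cells did not reach 10 counts of Ncr1. The intervals of the shares do not overlap, but they cover counting error only. Within lane 1 the shares were 42.6% and 2.66%, and within lane 2 they were 38.9% and 8.70%.

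The signalling adaptors differed in how widely they were found. Fcer1g was in 70 of 97 treated Gzma+ cells (72.2%, 62.1 to 80.8%) and 11.8% of untreated cells (8.25 to 16.2%), the widest gap in share of cells after Gzma itself, with a log2 ratio of 2.70. Tyrobp was in 29.9% (21.0 to 40.0%) against 2.86% (1.24 to 5.55%), a log2 ratio of 3.54. Hcst, the gene of the NKG2D adaptor DAP10, was in 44.3% and 30.0% of cells and was not called. Klrk1, which encodes NKG2D, was in 71.1% of treated Gzma+ cells (61.1 to 79.9%) and 34.6% of untreated cells (29.1 to 40.5%), a log2 ratio of 1.18. Cd244a, the gene of the SLAM family receptor 2B4, was in 32.0% against 5.00%, a log2 ratio of 2.64.

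The Ly49 genes (Klra) and the CD94/NKG2 genes sit together in the NK gene complex. All 10 Klr genes called higher than in untreated cells lay between 129577905 and 130386874 on chromosome 6 (GRCm38). Klra9, an inhibitory Ly49 gene at 130178675 to 130193112, was in 30 of 97 treated Gzma+ cells (30.9%, 21.9 to 41.1%) and 2.5% of untreated cells (1.01 to 5.08%). Its level was low, 67.6 CPM against 4.22 CPM, a log2 ratio of 3.71. Klra5 was in 48.5% against 8.21% of cells, Klra1 in 48.5% against 17.5%, Klre1 in 59.8% against 20.4%, and Klrc3 in 29.9% against 3.21%. Klrd1, the gene of CD94, was in 29.9% against 12.9%, and Klrc1, the gene of NKG2A, in 26.8% against 10.7%; neither was called. In lane 2 alone Klra9 was in 25% of treated Gzma+ and 6.52% of untreated cells, and Tyrobp in 19.4% and 6.52%, so that neither passed the rule there, nor did Klra8, Klra10 and Klra13-ps; Klra1 missed it with equal weight per cell. Klra4 lost the call in lane 1, with cells thinned to 100000 counts, with equal weight per cell and with 5 CPM added in place of 1.

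The Ly49 genes are near-copies of each other and were counted on the reference genome, which is of another strain than NOD, so reads may be placed on the wrong member. Klra9, Klra8 and Klra10 were found in nearly the same cells. Of the 30 cells with Klra9, 24 (80.0%) had Klra8, against 1 of the 67 cells without Klra9 (1.49%). All 24 cells with Klra10 had Klra9. Klrc1 and Klrc2 were paired likewise, with Klrc2 in 88.5% of the 26 cells with Klrc1. These blocks cannot be read as separate genes. Klra9 and Klra1 were less tied, with Klra1 in 63.3% of the cells with Klra9.

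**Figure D3:**
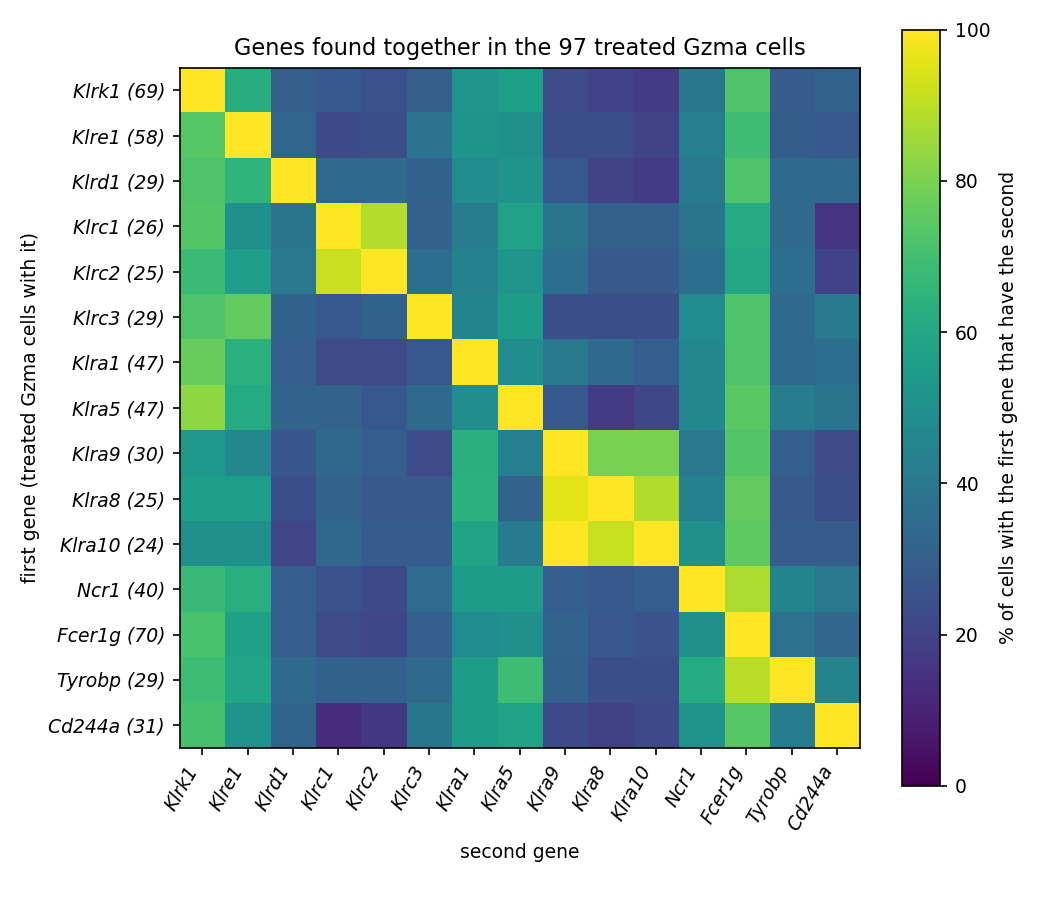
Colour gives, for the treated Gzma+ cells that have the gene of the row (number in brackets, at least 10 counts), the percentage that also have the gene of the column. Klra9, Klra8 and Klra10 form a block of 80.0 to 100%, Klrc1 and Klrc2 a pair, and the other genes are found together in mixed sets.

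Other combinations were mixed. Ncr1 and Klra9 were both found in 12 of 97 cells, either in 58, and neither in 39. Klra9 was in 30.0% of the cells with Ncr1 and 31.6% of those without it. Fcer1g was in 87.5% of the 40 cells with Ncr1 and 61.4% of the 57 without it, and Tyrobp in 45.0% and 19.3%. The median Gzma level was 8869 CPM in cells with Ncr1 and 6528 CPM in those without it, and 11785 CPM in cells with Tyrobp against 5211 CPM without. These cells come from the same sample and are no replicates, so the values are given as a description.

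Counted per cell, treated Gzma+ cells had a median of 8 of the 28 listed NK receptor and adaptor genes, with a range from 0 to 15. All untreated cells had a median of 2, treated Gzma- cells 5.5, treated Tr1-like cells 1, and the 11 untreated Gzma+ cells 6. At least 5 of these genes were found in 90.7% of treated Gzma+ cells (83.1 to 95.7%), 20% of untreated cells (15.5 to 25.2%), 53.8% of treated Gzma- cells (42.2 to 65.0%) and 10.98% of treated Tr1-like cells (5.14 to 19.8%). With every cell thinned to 100000 counts the shares with at least 5 were 90.7%, 20%, 53.8% and 8.54%. Genes that may share reads were counted separately here.

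**Figure D4:**
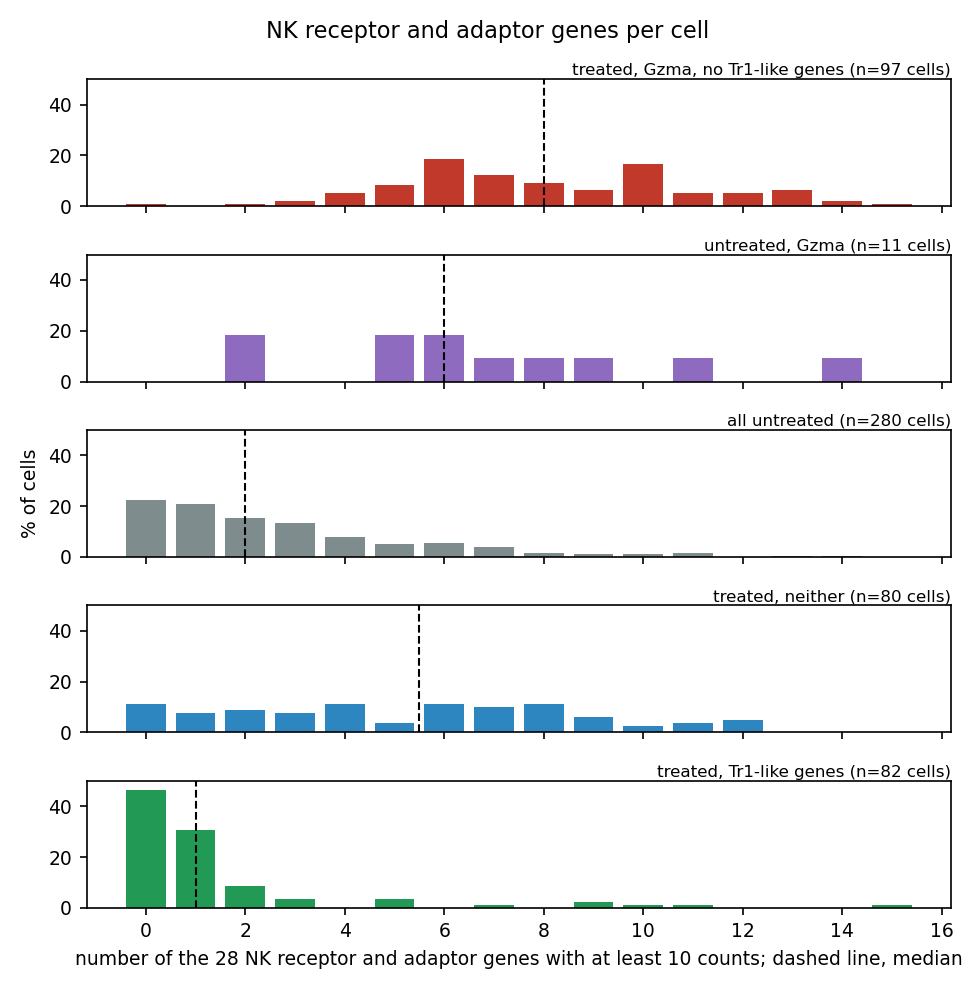
Histograms of the number of the 28 NK receptor and adaptor genes with at least 10 counts in a cell, as a percentage of the cells of each set; dashed lines are medians. Treated Gzma+ cells centre on 8, treated Gzma- cells spread from 0 to 12, and untreated and treated Tr1-like cells pile up near 0.

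The other genes higher than in untreated cells had several roles. Cd7, a T and NK cell surface gene, was in 77.3% of treated Gzma+ cells (67.7 to 85.2%) against 27.5% (22.4 to 33.1%), a log2 ratio of 2.40. Rgs1, a regulator of G protein signalling that limits responses to chemokines, was in 64.9% against 26.8%, a log2 ratio of 2.02. Anxa2 (annexin A2) was in 55.7% against 22.9%, St6galnac2 (a sialyltransferase) in 40.2% against 10.4%, and Slfn2 (a Schlafen family gene) in 34.0% against 13.9%. Tpst2, a tyrosylprotein sulfotransferase gene, was in 51.5% against 31.1%. Slfn2 and Tpst2 lost the call in lane 1, among cells the study assigned to a sub-cluster, and when the cell with most counts of the gene was left out. Slfn2 also lost it with cells thinned to 100000 counts. Tpst2 also lost it with TMM factors and when any count of Il10, Il21 or Lag3 set a cell apart. Anxa2, St6galnac2, Slfn2 and Tpst2 were in 40%, 21.25%, 23.75% and 23.75% of treated Gzma- cells. With cells thinned and 2 counts needed, Anxa2 was in 48.8%, St6galnac2 in 18.3% and Tpst2 in 40.2% of treated Tr1-like cells.

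The 6 genes lower than in untreated cells were Egr1, Fos, Jun, Junb, Dusp1 and Klf6. Of the 9 immediate early genes tested, Egr1, Fos, Jun, Junb and Dusp1 were lower and none higher, beside 0.341% lower among all genes tested. Egr1 was in 13.4% of treated Gzma+ cells (7.33 to 21.8%) and 44.3% of untreated cells (38.4 to 50.3%), a log2 ratio of -3.08. Fos was in 13.4% against 48.6%, a log2 ratio of -3.07, and Junb in 57.7% against 85.0%. They encode transcription factors and a phosphatase that cells switch on quickly when stimulated. Fos was also in fewer cells of the other treated sets than of the untreated one, with 28.8% of treated Gzma- and 28.05% of treated Tr1-like cells. The same held for Junb, Dusp1, Jun and Klf6, in 85.0%, 71.4%, 45.4% and 37.9% of untreated cells. Treated Gzma+ cells had them in 57.7%, 49.5%, 15.5% and 16.5%. Treated Gzma- cells had them in 62.5%, 51.25%, 21.25% and 13.75%. With cells thinned and 2 counts needed, treated Tr1-like cells had them in 61.0%, 46.3%, 22.0% and 24.4%. Egr1 was in 35% of treated Gzma- cells and, with cells thinned and 2 counts needed, 36.6% of treated Tr1-like cells. Jun and Klf6 did not pass the rule in lane 2 alone, nor Dusp1 among cells the study assigned to a sub-cluster.

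**Figure D5:**
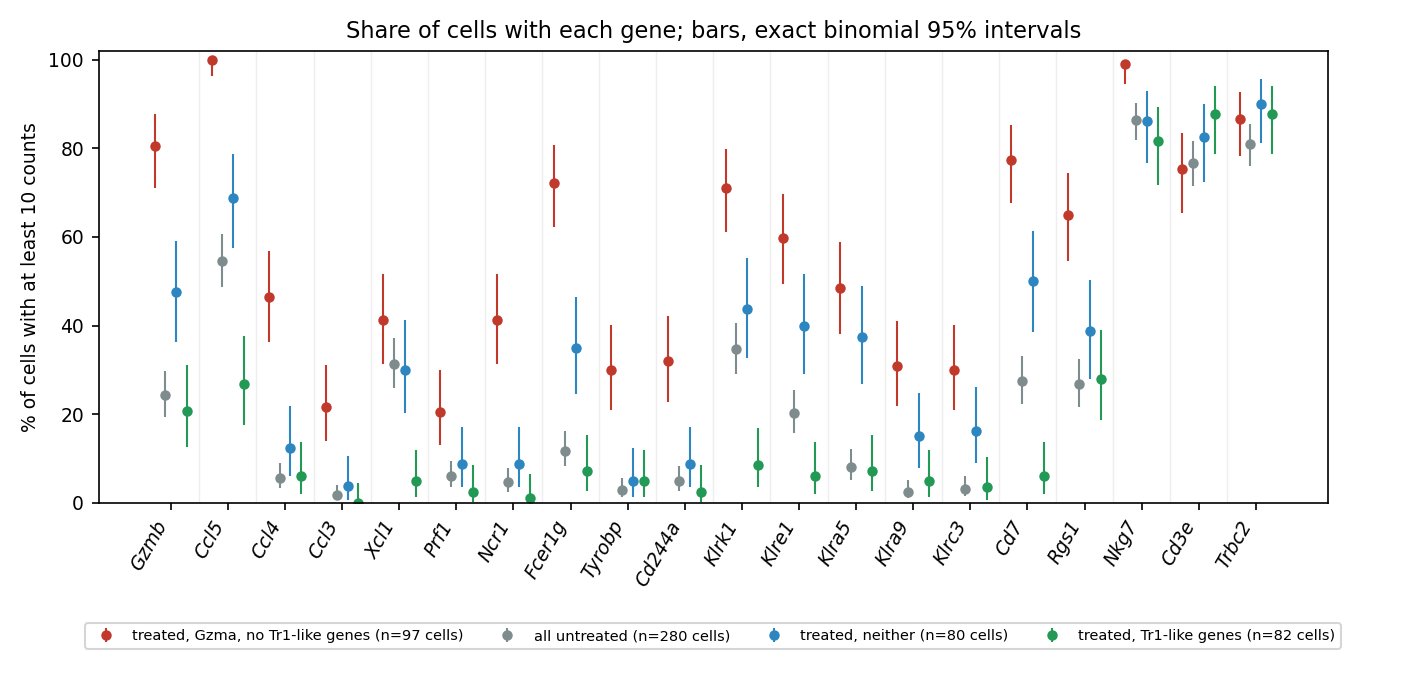
Percentage of cells with at least 10 counts of each gene in 4 sets of cells, with exact binomial 95% intervals. Treated Gzma+ cells (red) have the highest share for each gene from Gzmb to Rgs1; their intervals overlap those of treated Gzma- cells for Xcl1, Prf1, Klre1, Klra5, Klra9 and Klrc3, and the sets overlap for the T cell genes Cd3e and Trbc2.

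Against treated Gzma- cells, which came from the same sample, fewer genes were called over both lanes, but not in lane 2. Of 1860 genes tested, 13 (0.699%) were higher in treated Gzma+ cells and 2 (0.108%) were lower. In lane 2 alone, with 21 treated Gzma- cells, 43 were higher and 67 lower, beside 34 and 15 against untreated cells. Besides Gzma the 13 genes higher over both lanes were Gzmb, Ccl4, Ccl5, Ncr1, Fcer1g, Tyrobp, Cd244a, Cd7, Rgs1, Tpst2, Emp3 and Rpl9. Gzmb was in 80.4% against 47.5% of cells (36.2 to 59.0%), a log2 ratio of 1.43. Ncr1 was in 41.2% against 8.75% (3.59 to 17.2%), a log2 ratio of 1.92. Tyrobp was in 29.9% against 5.00% (1.38 to 12.3%), and Cd244a in 32.0% against 8.75%. Ccl5 was in all cells against 68.8% (57.4 to 78.7%), and Ccl4 in 46.4% against 12.5% (6.16 to 21.8%). Emp3, a membrane protein gene, was in 27.8% against 6.25%. Ncr1, Tyrobp, Cd244a and Emp3 entered this test only through the treated Gzma+ cells, so they could only be called higher. Rpl9, a ribosomal protein gene with many processed copies in the genome, was in 49.5% against 28.8%.

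No inhibitory NK receptor was called against treated Gzma- cells, of 10 tested. This is near the 0.699% of all genes called higher there. Against untreated cells 5 of 9 had been called, beside 1.42% of all genes. The median log2 ratio against treated Gzma- cells was 0.70 for the inhibitory list and 0.71 for the activating list, beside -0.01 over all genes tested. Klre1 was in 59.8% of treated Gzma+ and 40% of treated Gzma- cells, 19.8 points apart and so just under the call. Klra7 was in 17.5% and 1.25% of these cells. Klra1 was in 48.5% of treated Gzma+ and 47.5% of treated Gzma- cells, and Klra5 in 48.5% and 37.5%, with higher summed levels in treated Gzma- cells for both. Klra9 was in 30.9% and 15% (7.998 to 24.7%). In untreated cells Klra1, Klra5 and Klra9 were in 17.5%, 8.21% and 2.5%. Ncr1 was in 8.75% of treated Gzma- cells (3.59 to 17.2%) and 4.64% of untreated cells. In lane 2 alone Klra9 was in 9.52% of treated Gzma- and 6.52% of untreated cells. Each condition is 1 sample, so these differences were not tested.

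Egr1 was lower also against treated Gzma- cells, in 13.4% against 35% of cells. The other lower gene was Izumo1r, which encodes the folate receptor FR4 and is in the Tr1-like list. Izumo1r entered this test only through the treated Gzma- cells, so it could only be called lower. It was in 1 of 97 treated Gzma+ cells (1.03%, 0.026 to 5.61%), 21.2% of treated Gzma- cells (12.9 to 31.8%), 40.2% of treated Tr1-like cells (29.6 to 51.7%) and 1.43% of untreated cells. When the 13 treated cells with macrophage genes were put back, Izumo1r, Fcer1g, Tyrobp, Emp3 and Rpl9 no longer passed the rule against treated Gzma- cells, since all 13 cells entered that set. Izumo1r also lost the call when 1 count of a Tr1-like gene was enough to be set apart, and in lane 1 alone. Against treated Gzma- cells, Fcer1g, Emp3 and Rpl9 did not pass in lane 1, where Fcer1g was in 68.8% against 42.4% of cells. The log2 ratio of Fcer1g, 1.04 over all cells, missed 2-fold with equal weight per cell. Fcer1g also lost the call among cells the study assigned to a sub-cluster. Tyrobp, Cd244a, Rgs1 and Egr1 did not pass in lane 2, where there were 21 treated Gzma- cells. Gzmb, Ccl4, Ccl5, Ncr1, Cd7 and Tpst2 passed in both lanes.

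Against treated Tr1-like cells, 35 of 1985 genes tested (1.76%) were higher and 55 (2.77%) were lower. In lane 2 alone these counts were 53 and 103. Il10, Il21 and Lag3 were lower and Gzma higher by the rule. Of 13 activating receptors and adaptors, 9 were higher, and of 9 inhibitory receptors, 7 were; none was lower. Of these, 8 of the 9 and 6 of the 7 were in under 10% of treated Tr1-like cells and entered the test only through the treated Gzma+ cells, so they could not have been called lower. The limit on separate Klra and Klrc genes holds here too. Ncr1 was in 41.2% against 1.22% of cells (0.031 to 6.61%), Klre1 in 59.8% against 6.10%, and Klrk1 in 71.1% against 8.54%. Ccl3 was in 21.6% of treated Gzma+ cells and had 0 counts in the 82 treated Tr1-like cells. Read as up to 3 cells, this 0 is a share of up to 3.66%. In lane 1 alone Ccl3, Cxcr3 and Klrc3 did not pass the rule against treated Tr1-like cells, nor in lane 2 did Klra8, Klra9, Klra10, Klrc2, Tyrobp and Fth1.

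Of 13 iNKT1 genes tested, 7 were higher in treated Gzma+ than in treated Tr1-like cells and none lower, beside 1.76% higher among all genes tested. They were Il2rb, Cxcr3, Ccl3, Ccl4, Ccl5, Xcl1 and Id2, of which Ccl3, Ccl4 and Xcl1 entered the test only through the treated Gzma+ cells. Id2, a helix-loop-helix regulator of NK and iNKT1 cells, was in 86.6% of treated Gzma+ cells (78.2 to 92.7%) and 46.3% of treated Tr1-like cells (35.3 to 57.7%), beside 91.8% of untreated cells. Il2rb, the IL-2 and IL-15 receptor beta chain gene, was in 75.3%, 43.9% and 79.3% of these sets, and lost the call when cells were thinned or weighted equally. Against untreated cells only Ccl4 and Ccl5 of 14 iNKT1 genes tested were higher, beside 1.42% of all genes tested. There too Ccl4 entered the test only through the treated Gzma+ cells. Tbx21, the gene of T-bet, was in 32.0% of treated Gzma+ cells (22.9 to 42.2%) and 28.2% of untreated cells (23.02 to 33.9%), and Cxcr6, a liver retention receptor, in 48.5% against 74.6%, with a log2 ratio of -0.94 that missed the 2-fold rule. The other treated sets were also below untreated cells for Cxcr6. It was in 48.75% of treated Gzma- cells and, with cells thinned and 2 counts needed, 43.9% of treated Tr1-like cells.

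Of 17 listed Tr1-like genes that were not part of the rule, 12 could be tested against treated Tr1-like cells. Of these Maf, Tigit, Pdcd1, Izumo1r and Cd4 were lower, 7 were called neither way and none was higher, beside 2.77% lower among all genes tested. All 5 were in under 10% of treated Gzma+ cells and entered the test only through the treated Tr1-like cells, so their direction was fixed by that filter. Maf was in 1.03% of treated Gzma+ cells and 51.2% of treated Tr1-like cells (39.9 to 62.4%), and Pdcd1, the gene of PD-1, in 7.22% against 41.5%. Itga4, which is in the list and was not called, was in 20.6% of treated Gzma+ cells, and Tigit in 7.22%. Against untreated cells 2 of the 17 genes could be tested and neither was called. Their median log2 ratio was 3.12, beside 0.01 over all genes tested there. Of the iNKT2 list 2 genes could be tested against treated Tr1-like cells, Icos and Il4. Both were lower, beside 2.77% among all genes tested, and their direction was fixed by the filter in the same way. Icos was in 4.12% of treated Gzma+ against 35.4% of treated Tr1-like cells. Il4 had 0 counts in the 97 cells, a share of up to 3.09% when read as up to 3 cells. It was in 26.8% of treated Tr1-like and 8.57% of untreated cells. Of 11 effector genes tested, Gzma, which the rule used, Gzmb and Ctsw were higher than in treated Tr1-like cells, beside 1.76% of all genes. Srgn (serglycin) was lower, in 60.8% against 90.2% of cells, as was Cst7 (cystatin F), in 19.6% against 42.7%. Among all genes tested 2.77% were lower. Of the 55 genes lower than in treated Tr1-like cells, 45 passed the rule in lane 1 and 39 in lane 2, where Cst7 and Egr1 did not.

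Across the 3 larger sets, 9 genes besides Gzma, which the rule used, were higher in treated Gzma+ cells each time. They were Gzmb, Ccl4, Ccl5, Ncr1, Fcer1g, Tyrobp, Cd244a, Cd7 and Rgs1, and Egr1 was lower each time. Ncr1, Tyrobp and Cd244a entered all 3 tests only through the treated Gzma+ cells, so they could only be called higher. The same held for Ccl4 against untreated cells and treated Tr1-like cells, and for Fcer1g and Cd7 against treated Tr1-like cells. Gzmb, Ccl5, Rgs1 and Egr1 were not limited in this way. The comparisons share the treated Gzma+ cells, so they are not independent.

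The 11 untreated Gzma+ cells, which are also among the 280, were too few for a comparison of many genes: 1 cell is 9.09 percentage points, and 3 cells pass the 20-point rule. Of 1984 genes tested, 34 (1.71%) were higher in treated Gzma+ cells and 101 (5.09%) lower, and leaving out the strongest cell of each gene changed these counts to 82 and 32. Apart from that the effector genes are set side by side. Ccl5 was in all 11 untreated Gzma+ cells (71.5 to 100%), Gzmb in 7 (63.6%, 30.8 to 89.1%), Cd7 in 9, Klre1 in 8, Klra1 in 7, Ccl4 and Fcer1g in 5, Tyrobp in 4 and Ncr1 in 3 (27.3%, 6.02 to 61.0%). All of these intervals include the share in treated Gzma+ cells. Klrc3 had 0 counts in the 11 cells, beside a share of 29.9% in treated Gzma+ cells. Read as up to 3 cells, this 0 is a share of up to 27.3%, and the exact binomial limit for 0 of 11 is 28.5%. Junb was in 11 of 11 untreated and 57.7% of treated Gzma+ cells.

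Few treated Gzma+ cells carried several genes of the cell cycle. At least 4 of 16 proliferation genes reached 10 counts in 8 of 97 cells (8.25%, 3.63 to 15.6%), in 1.07% of untreated cells (0.221 to 3.10%), in 6.25% of treated Gzma- cells and in 8.54% of treated Tr1-like cells. Of the proliferation genes, 3 could be tested and none was called in any of the comparisons. The 8 MHC class I genes were tested against all sets and none was called against untreated cells, treated Gzma- cells or treated Tr1-like cells. In those comparisons 0.108 to 2.77% of all genes were called in each direction. None called among 8 MHC class I or 3 proliferation genes is near those shares. Nlrc5, a regulator of MHC class I genes, was higher against the 11 untreated Gzma+ cells, in 23.7% of treated Gzma+ cells and 0 of 11.

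TCR beta segments were not used by the rule. Of 86 treated Gzma+ cells in which a Trbv segment had at least 5 counts, Trbv13-2 led in 33 (38.4%, 28.1 to 49.5%) and Trbv29 in 25 (29.1%, 19.8 to 39.9%). In untreated cells Trbv13-2 led in 50.9% (44.3 to 57.4%) of 236 cells and Trbv29 in 18.2% (13.5 to 23.8%). In treated Gzma- cells the shares were 58.1% (46.1 to 69.5%) and 14.9% (7.66 to 25.04%), and in treated Tr1-like cells 55.9% (43.3 to 67.9%) and 8.82% (3.31 to 18.2%). The interval of Trbv29 in treated Gzma+ cells overlaps those of untreated and treated Gzma- cells and lies above that of treated Tr1-like cells. Trbv13-3 led in 10.5% (4.90 to 18.9%) of treated Gzma+ and 2.97% (1.20 to 6.02%) of untreated cells. It led in 6.76% of treated Gzma- and 2.94% of treated Tr1-like cells. Trbv13-1 and Trbv1 led in 10.5% and 2.33% of treated Gzma+ cells, and in 12.3% and 6.36% of untreated cells. The share of each mouse in these cells cannot be told apart.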

How the data were processed

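Liver iNKT cells were sequenced singly by SmartSeq2. Per the study's methods, the authors aligned reads with STAR to GRCm38 and deposited raw counts per gene and cell; whether counting used strand is not given in the sources used here. Gene symbols were matched by Ensembl ID without its version (55141 of 55401 IDs matched). Of 282 treated cells, 10 had under 100000 counts and 13 failed the macrophage filter; of 284 untreated cells, 4 and 0 did. Cell columns were all mapped to a sample. The members and gene lists were chosen with earlier results of these data known.

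For each set, gene totals over its cells were scaled to CPM, with exact Poisson 95% intervals in the tables; shares of cells carry exact (Clopper-Pearson) binomial intervals. Both cover counting error only. A count of 0 was read as up to 3 counts, and a share of 0 cells as up to 3 cells. With 1 sample per condition no test was run. The size rule (2-fold, 20 points, prior of 1 CPM) was run on simulated data as a check of the calculation, and no result here rests on that. The genes named were the 10 highest and 10 lowest called against untreated and untreated Gzma+ cells, 5 and 5 against the others, the rule's genes and those of 23 lists; others among the called genes were named after their values were seen. The alternatives were other cell filters, thinning, TMM factors (edgeR), another prior, equal weight per cell and no filter on genes. Others left out the strongest cell, took the study's own list of cells, or took each lane. With thinning, 2 counts in place of 10 were needed, also for Gzma, Il10, Il21 and Lag3 of the rule. A deposited table of methylation fractions from bulk cells, pooled by the authors, was used for the closing section only. Other deposited files were not used here.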

Additional observations from a re-analysis of the deposited data

Results flagged for a closer look

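The macrophage filter removed 13 of the 272 treated cells deep enough for use and 0 of the 280 untreated cells. None of the 13 had 10 counts of Gzma, so the 97 treated Gzma+ cells did not depend on it, but all 13 would have joined the treated cells with neither Gzma nor Tr1-like genes.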

How the results depend on the processing

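Of the 13 alternatives, dropping the filter on genes gave no log2 ratios of named genes. Under the others, no log2 ratio of a called gene among 42 named genes changed sign. Called genes were at least 2-fold apart, so this says little about smaller shifts. Of 1932 log2 ratios 152 moved by over 1.5-fold, among them 58 of 126 in lane 2, 24 of 126 in lane 1 and 35 of 168 without the cell with most counts. The share of treated cells that were Gzma+ and the share of untreated cells that met the rule stayed within their main intervals. Counts that changed by over 1.5 times were as follows, and the cause was not tested. With any count of Il10, Il21 or Lag3 setting a cell apart, genes lower than in treated Gzma- cells numbered 1. Without the cell with most counts of each gene, genes higher and lower than in the 11 untreated Gzma+ cells numbered 82 and 32. In lane 1, genes lower than in untreated cells numbered 12 and lower than in treated Gzma- cells 4. In lane 2, with 36 treated Gzma+ and 21 treated Gzma- cells, genes lower than in untreated cells numbered 15, genes higher and lower than in treated Gzma- cells 43 and 67, and those higher and lower than in treated Tr1-like cells 53 and 103. Of the 25 genes higher than in untreated cells, 21 were called in lane 1 and 20 in lane 2. No paired analysis was possible because each condition is 1 sample and the cell names carry no mouse or replicate number. Lanes with under 20 cells in a set gave no value. With cells thinned to 100000 counts and 2 counts needed, Klra9 was in 30.9% of treated Gzma+ and 2.14% of untreated cells.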

Other observations

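Of 13 recirculation and retention genes tested against untreated cells, Rgs1 was higher (1.42% of all genes tested were) and none lower. S1pr5, a sphingosine receptor that NK cells use to leave tissues, was in 13 of 97 treated Gzma+ cells (13.4%, 7.33 to 21.8%) and in 0.357% of untreated, 1.25% of treated Gzma- and 0% of treated Tr1-like cells; it missed the 20-point rule. S1pr1 was in 1.03% of treated Gzma+ and 18.3% of treated Tr1-like cells.

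In bulk liver iNKT cells the authors' table of methylated cytosines held pooled values with no replicates, at sites that lay almost all in regions they had called different. Per the paper's methods, these cells came from older mice than the single cells did. The untreated mice were female and slightly older than the treated mice, whose sex is not stated separately. Of 22 loci read with 2000 bases either side, 2 had listed cytosines above 10% methylation in either group. At Gzmk on chromosome 13, 34 cytosines between 113183072 and 113183924 (GRCm38, an intron of the longest transcript) averaged 92.3% in untreated and 48.5% in treated cells. At Ccl5 on chromosome 11, 24 cytosines between 83528091 and 83528497 (an intron) averaged 88.4% and 71.9%. No cytosine above that level was listed at Gzma, Ncr1 or Klra9 within this window. Over a wider window, the paper placed Gzma and Gzmk among upregulated genes near active enhancers that lost methylation with treatment. The window used here does not cover that result. Which cells of the bulk sample carried these values was not tested.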
